A study of Mus musculus with 4 samples.

Results

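Regions of open chromatin that overlapped an exon of a protein-coding gene and lay away from promoters were examined in posterior forelimb buds of mouse embryos with and without Sonic hedgehog (SHH). The data were ATAC-seq peak lists, in which the Tn5 transposase inserts adapters into accessible DNA and a peak caller lists the places where the reads pile up. Each list came from the posterior fractions of the forelimbs of 1 embryo at E10.5 (35 somites) on a Swiss Webster background. There were 2 wild-type (WT) libraries and 2 Shh-/- libraries, the latter homozygous for the null allele Shh tm1amc, which lacks the ligand in every cell. All 4 libraries used 5000 cells and 18 cycles of PCR.

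Overlapping peaks (1 bp or more) of the 4 lists were joined, which left 44692 regions. For the set described here, a region had to overlap an exon of a protein-coding gene (GENCODE M21 basic, mm10) and to stay clear of the 2 kb before and the 1 kb after any transcription start site (TSS). This gave 5402 exonic regions, 12.1% of all regions. The remaining regions were 17507 promoter regions, 11302 intronic regions and 10481 regions outside protein-coding genes. Each exonic region was assigned to the exon it overlapped most. Internal exons held 3674 regions, last exons 1636 and first exons 92, the last of these more than 1 kb beyond the TSS. Of the 92, 42 lay in transcripts with a single exon.

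Most accessible DNA in animal genomes lies at promoters and at distal enhancers. Exons tend to carry more nucleosomes than introns and are richer in G and C, but some also hold enhancers, insulator sites or unannotated promoters. In the limb bud, HH signaling acts through the GLI transcription factors, which bind enhancers of genes that pattern the posterior limb. In the absence of SHH the GLI proteins act mainly as repressors.

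The sequences below show what exonic regions called in all 4 libraries look like at their summits, the base with the highest pileup. They are the best ranked of the regions of internal and last exons that were called in all 4 libraries and whose 100 bp on either side of the summit hold no UTR. Bases are those of the mm10 genome on the strand of the gene, and capitals mark exon bases. Phf19 encodes a Polycomb-like protein, Muc6 a secreted gastric mucin and Fstl3 a secreted protein that binds activin. Mamstr encodes a cofactor of MEF2 and Fhl3 a LIM-only protein.
Phf19, chr2:34905045-34905245, - strand: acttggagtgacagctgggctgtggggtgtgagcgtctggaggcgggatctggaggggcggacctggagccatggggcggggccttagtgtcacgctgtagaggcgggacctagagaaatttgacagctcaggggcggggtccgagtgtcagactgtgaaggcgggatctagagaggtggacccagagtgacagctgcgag
Muc6, chr7:141638709-141638909, - strand: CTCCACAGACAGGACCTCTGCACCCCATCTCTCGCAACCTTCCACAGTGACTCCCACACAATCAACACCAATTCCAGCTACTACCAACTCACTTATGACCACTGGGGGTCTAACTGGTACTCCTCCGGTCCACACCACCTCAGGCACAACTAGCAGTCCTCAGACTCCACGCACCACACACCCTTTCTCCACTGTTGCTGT
Fstl3, chr10:79780213-79780413, + strand: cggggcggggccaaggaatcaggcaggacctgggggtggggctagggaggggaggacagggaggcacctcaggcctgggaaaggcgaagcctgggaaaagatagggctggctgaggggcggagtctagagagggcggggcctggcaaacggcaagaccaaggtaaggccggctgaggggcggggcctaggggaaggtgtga
Mamstr, chr7:45643611-45643811, + strand: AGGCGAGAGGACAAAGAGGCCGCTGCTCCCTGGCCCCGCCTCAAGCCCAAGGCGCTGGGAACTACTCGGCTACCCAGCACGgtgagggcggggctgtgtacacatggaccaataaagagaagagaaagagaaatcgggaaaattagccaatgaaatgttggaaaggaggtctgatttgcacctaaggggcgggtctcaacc
Fhl3, chr4:124708940-124709140, + strand: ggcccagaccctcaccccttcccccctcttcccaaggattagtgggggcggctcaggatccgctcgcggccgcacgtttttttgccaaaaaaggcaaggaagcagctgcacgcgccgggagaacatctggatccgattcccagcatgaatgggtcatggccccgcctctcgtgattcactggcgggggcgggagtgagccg
The window of Muc6 was exon throughout, and that of Mamstr held 81 exon bases. The windows of Phf19, Fstl3 and Fhl3 held 0 exon bases, since their regions reached an exon only at a flank. The 5 windows had a GC content of 63.2% in Phf19, 54.7% in Muc6, 68.2% in Fstl3, 56.2% in Mamstr and 63.7% in Fhl3.

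For comparison, the following windows come from regions that only the pair of WT libraries called (WT-specific) or only the pair of Shh-/- libraries (Shh-specific). They are the best ranked of each kind that hold no UTR. Gm14412 is a predicted gene, Mroh2a encodes a protein with HEAT repeats and Galnt18 an enzyme that starts O-linked glycosylation.
Gm14412, chr2:177319612-177319812, - strand: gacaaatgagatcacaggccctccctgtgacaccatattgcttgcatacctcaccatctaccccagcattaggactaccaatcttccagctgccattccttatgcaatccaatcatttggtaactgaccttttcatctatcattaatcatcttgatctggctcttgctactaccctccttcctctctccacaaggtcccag
Mroh2a, chr1:88230443-88230643, + strand: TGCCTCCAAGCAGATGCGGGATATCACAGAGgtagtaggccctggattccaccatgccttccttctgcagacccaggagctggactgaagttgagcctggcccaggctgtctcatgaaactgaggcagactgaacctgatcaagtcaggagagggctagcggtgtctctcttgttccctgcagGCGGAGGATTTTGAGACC
Galnt18, chr7:111616123-111616323, - strand: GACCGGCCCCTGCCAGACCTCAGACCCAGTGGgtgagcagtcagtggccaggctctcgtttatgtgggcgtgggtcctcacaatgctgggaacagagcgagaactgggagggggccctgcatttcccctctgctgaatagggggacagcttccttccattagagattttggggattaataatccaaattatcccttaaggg
Gm14412 and Mroh2a were WT-specific and Galnt18 was Shh-specific. Their windows held 0, 49 and 32 exon bases in that order, with a GC content of 46.3%, 56.2% and 55.7%.

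The number of exonic regions differed widely between libraries. WT replicate 1 had 4743 exonic regions among 38768 regions in all. WT replicate 2 had 633 of 11593. Shh-/- replicate 1 had 177 of 5445, and Shh-/- replicate 2 had 814 of 18094. The number in WT replicate 1 was thus far above that in every other library, while WT replicate 2 lay between the Shh-/- libraries. The mean was 2688 ± 2906 in WT and 495.5 ± 450.4 in Shh-/- (SD, n = 2 each). This difference did not exceed the replicate spread (two-sided exact permutation test, p = 0.667, adjusted p = 0.667 over 2 comparisons). The smallest p that 2 libraries against 2 allow is 0.333, so no such comparison could pass 0.05.

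As a share of the library's own regions, exonic regions made up 12.2% of WT replicate 1 (95% Wilson interval 11.9 to 12.6%) and 5.46% of WT replicate 2 (5.06 to 5.89%). The shares were 3.25% in Shh-/- replicate 1 (2.81 to 3.76%) and 4.50% in Shh-/- replicate 2 (4.21 to 4.81%). Both WT shares were above both Shh-/- shares, with means of 8.85 ± 4.79% and 3.87 ± 0.882% (SD, n = 2 each; exact permutation test, p = 0.333, the smallest possible, adjusted p = 0.667). The order did not hold when each list was cut to the length of the smallest, that is to its 5589 best peaks by score (equal list size). The WT replicates then had 1.49 and 1.66% and the Shh-/- replicates 2.66 and 1.17%. The share was highest in the longest list and lowest in the shortest, but Shh-/- replicate 2 had a longer list than WT replicate 2 and a lower share. The part of list size in the difference between genotypes cannot be told apart from that of the genotype. The intervals cover counting error only.

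**Figure D1:**
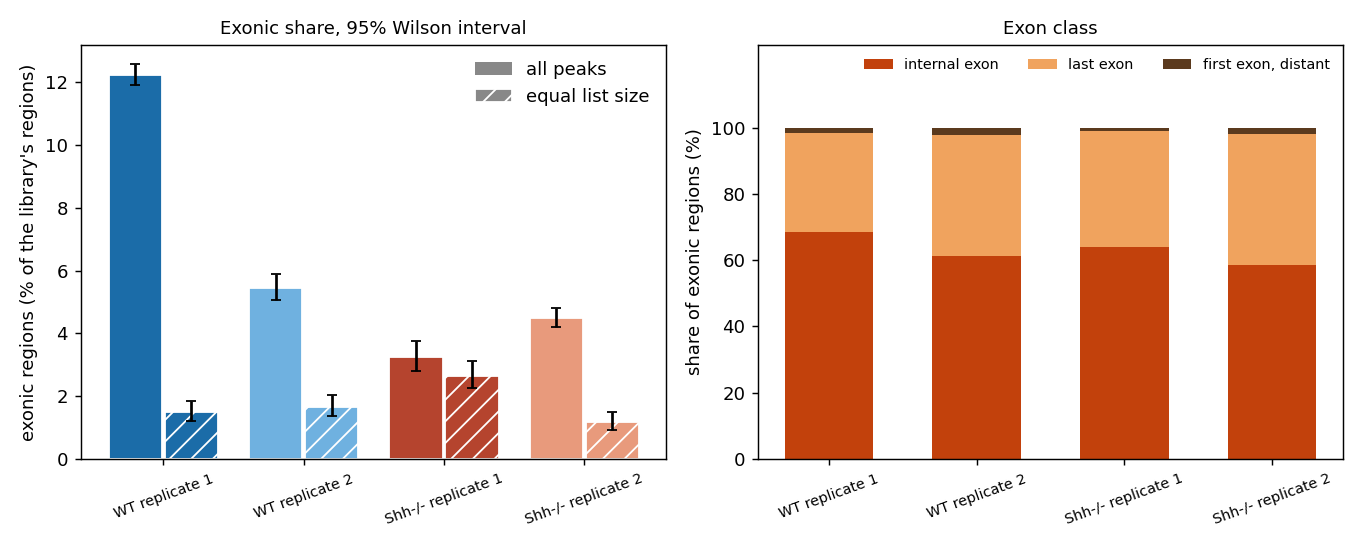
Left, exonic regions as a percentage of the regions of each of the 4 libraries, with all peaks (plain bars) and with each list limited to 5589 peaks (hatched bars); error bars are 95% Wilson intervals. Right, the exon class of the exonic regions in percent; the share falls from 12.2% to 1.49% in WT replicate 1 when its list is limited, and internal exons hold between 58.6 and 68.5% in the 4 libraries.

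Exonic regions were called in few libraries. Of the 5402, 4722 (87.4%) were called in 1 library only, compared with 64.2% of all regions and 85.7% of intronic regions. A further 449 were called in 2 libraries, 177 in 3 and 54 in 4. The 54 were 1.0% of the exonic regions, compared with 7.97% of all regions and 1.23% of intronic regions. WT replicate 1 alone accounted for 4076 regions, or 75.5%, and 85.9% of its exonic regions were called nowhere else. For WT replicate 2 this figure was 44.4%, and for the Shh-/- replicates it was 27.1 and 38.9%. It was above the corresponding figure for all regions in each library, which was 59.5 and 16.5% for the WT replicates and 8.32 and 18.1% for the Shh-/- replicates. Of intronic regions, 7769 of 9307 and 638 of 1107 for the WT replicates were called nowhere else. For the Shh-/- replicates these were 194 of 759 and 1080 of 2464. The exonic share was thus below the intronic share in WT replicate 2 and Shh-/- replicate 2 and slightly above it in WT replicate 1 and Shh-/- replicate 1. Exonic regions called in 1 library had a median length of 320 bp, compared with 1158 bp for those called in 4. A region joins the peaks of every library that called it, so by construction its length can grow with their number.

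Measured over bases rather than regions, exons were covered more densely than introns in every library. Outside promoter windows, the annotation held 59.4 Mb of protein-coding exon, 875.0 Mb of intron and 1621 Mb of other sequence. Peaks of WT replicate 1 covered 1.94% of the exon bases and 0.575% of the intron bases, a ratio of 3.37. The ratio was 3.96 in WT replicate 2 (0.264% of exon and 0.0666% of intron bases). It was 1.14 in Shh-/- replicate 1 (0.0499% and 0.0439%) and 2.58 in Shh-/- replicate 2 (0.379% and 0.147%). Shh-/- replicate 1, the shortest list, was the library in which exons stood out least. Coding sequence was covered more than 3′ UTR in each library, by 2.59 and 3.42 times in the WT replicates and by 1.23 and 2.84 times in the Shh-/- replicates. Before any peak was called these bases already differed in composition: coding sequence had a GC content of 51.1%, 3′ UTR 42.6% and intron 42.3%. The part of base composition in these ratios was not tested.

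By what they overlapped most, 4335 exonic regions (80.2%) lay on coding sequence, 1002 (18.5%) on 3′ UTR and 65 (1.20%) on 5′ UTR. Internal exons are short, and the median overlap of their regions with the exon was 114 bp out of a median region length of 345 bp. Only 41.6% of the regions of internal exons had their summit inside an exon. In last exons the median overlap was 280 bp and 84.6% of summits were exonic, and in the distant part of first exons the values were 314.5 bp and 85.9%. Over all classes 2992 of 5402 summits (55.4%) were in an exon. Internal exons that held a region had a median length of 146 bp and a GC content of 58.1%, beside 123 bp and 50.5% for all 157599 internal exons outside promoter windows. Last exons with a region had a median of 1686 bp and 54.7% GC, beside 867 bp and 46.1% for all 30873. A longer exon has more bases that a peak can overlap.

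The classes differed in how often their regions were shared. Regions called in at least 2 libraries made up 11.1% of internal, 15.6% of last and 18.5% of first exons. Among the 65 regions on 5′ UTR the share was 30.8%, or 20 regions, compared with 12.2% on coding sequence and 12.9% on 3′ UTR. CpG density was also higher in first exons and 5′ UTR. The median ratio of observed to expected CpG was 0.570 in first exons, 0.277 in internal and 0.283 in last exons, and 0.439 on 5′ UTR. Promoter regions had a median of 0.733. The exonic regions lay at a median of 7.46 kb from the nearest TSS, and 343 had their summit less than 2 kb away. Of these, 13.7% were called in at least 2 libraries, as were 14.1% of the 1478 at 2 to 5 kb, 11.7% of the 2754 at 5 to 20 kb and 12.2% of the 827 beyond 20 kb. In intronic regions the share was 13.8% under 2 kb and 17.6% beyond 20 kb.

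The GC content of exonic regions lay between that of promoter and intronic regions in each library. In the 200 bp around the summit, the median of exonic regions was 57 and 58% for WT replicates 1 and 2 and 54.5 and 58% for Shh-/- replicates 1 and 2. The median of intronic regions was 52.5%, 53%, 49% and 51% in the same libraries, and that of promoter regions was 62 to 65.5%. Exonic regions thus exceeded intronic regions by 4.5, 5, 5.5 and 7 percentage points, with a mean of 5.50 ± 1.08 (SD, n = 4 libraries, higher in 4 of 4 libraries). The exact sign-flip permutation test gave p = 0.125, two-sided, which is the smallest that 4 libraries allow. Beside this, the exon bases of the annotation had a GC content of 46.8% and the intron bases 42.3%. Regions called in 1, 2, 3 and 4 libraries had medians of 56.5%, 59.5%, 61% and 57%, so the order in sharing was not an order in GC.

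**Figure D2:**
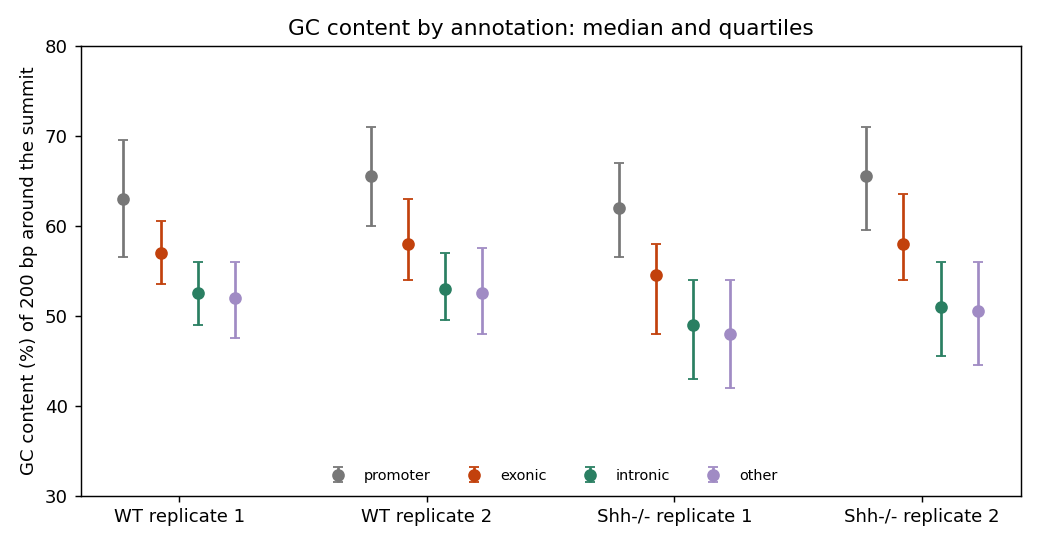
GC content in percent of the 200 bp around the summit, by library and annotation; points are medians over regions and bars span the quartiles. In each of the 4 libraries exonic regions (medians 54.5 to 58%) lie between promoter regions (62 to 65.5%) and intronic regions (49 to 53%).

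Exonic regions ranked low in each list. Peaks were ranked by the deposited score, and a rank percentile of 0 is the best and 100 the last of a list. The median percentile of exonic regions was 66.4 and 75.3 for WT replicates 1 and 2 and 72.7 and 76.8 for Shh-/- replicates 1 and 2. Promoter regions had medians of 25.7, 38.5, 41.1 and 36.6. The best 10% of each list held 40, 11, 4 and 10 exonic regions, between 0.843 and 2.26% of the exonic regions of a library. By contrast, 13.4 to 22.2% of promoter regions were in the best 10%.

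The ranks of exonic and intronic regions differed by less than the spread between libraries. The exonic median minus the intronic median was 0.228 and -2.74 percentile points for WT replicates 1 and 2. For Shh-/- replicates 1 and 2 it was 4.26 and 3.45. The mean was 1.3 ± 3.21 points (SD, n = 4), with exonic regions ranked lower in 3 of 4 libraries (exact sign-flip permutation test, p = 0.375). Scores are whole numbers and repeat often. The most frequent score was shared by 8.51 to 14% of a list, which is wider than each of these differences.

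**Figure D3:**
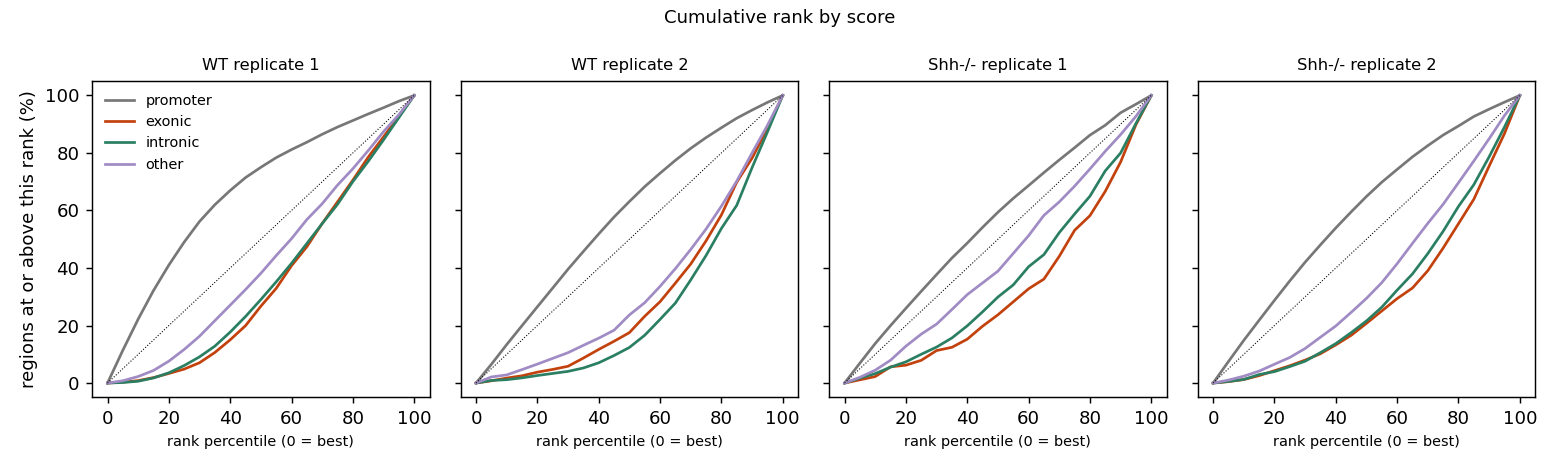
Cumulative share of regions (percent) against rank percentile in the list (0 is the best score), for each of the 4 libraries and 4 annotations; the dotted line is an even spread over the list. Promoter regions lie above it and exonic and intronic regions below it in every library, with exonic medians at percentiles 66.4 to 76.8.

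The 54 exonic regions called in all 4 libraries lay in 53 genes, 29 of them in last, 24 in internal and 1 in first exons. Only 18 of the 54 (33.3%) had their summit in an exon, beside 55.4% of all exonic regions. The median length was 1158 bp for the 54 and 344 bp for all exonic regions, and the part of length in this share was not tested. Their mean percentile ran from 0.0381 to 74.5, with a median of 31.9. They included genes of many kinds, from the secreted kinase gene Pkdcc to the cyclin gene Ccnd1. The single region of a first exon was in Pdcl3 (chr1:38987089-38988295), which encodes a phosducin-like protein. It lay at percentiles 5.31 and 8.82 of the WT lists and at 63.1 and 10.1 of the Shh-/- lists, in the order of the replicates.

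The best ranked exonic region was the same in every library. It lay in exon 21 of 21 of Lars2, the leucyl-tRNA synthetase of mitochondria, on 3′ UTR (chr9:123461786-123462198). By score its peak was number 3 and number 4 of WT replicates 1 and 2, and number 5 and number 4 of Shh-/- replicates 1 and 2. Its summit window matched 11 other places on 8 chromosomes in a BLASTN search. A separate BLASTN search, at 95% identity or more over at least 90% of the window, found 1 copy. The searches covered the assembled autosomes, X and Y, and not mitochondrial DNA or unplaced sequence. How reads with several matches were placed was not given in the sources used here, and its part in this rank was not tested. Among all 5402 exonic windows, 25 (0.463%) had a copy of that closeness, 2 of them among the 54 regions.

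Among other last exons, Mamstr (chr7:45643152-45645324, exon 10 of 10) ranked at percentiles of 0.837 and 3.59 in WT replicates 1 and 2 and of 4.13 and 1.57 in Shh-/- replicates 1 and 2. The region at 1600014C10Rik (chr7:38187560-38192386) was at 4.15, 5.25, 7.14 and 9.83 in the same order. Both were therefore near the top of every list. The histone H2B gene Hist1h2be (chr13:23585172-23586129) followed with a mean percentile of 13.4, and its window matched 21 other places on 5 chromosomes. Fhl3 (chr4:124708451-124709431) had a mean of 15.3, from 4.28 in WT replicate 1 to 36.7 in WT replicate 2.

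Among internal exons, Syp, which encodes the synaptic vesicle protein synaptophysin, was called over exon 6 of 7 (chrX:7648640-7649397). Its percentiles were 3.49, 12.9, 8.50 and 7.79 in WT replicates 1 and 2 and Shh-/- replicates 1 and 2. Phf19 (chr2:34904567-34905641, exon 6 of 15) was at 0.965, 13.0, 20.9 and 3.22. Muc6 (chr7:141638336-141639297, exon 32 of 34) was at 11.8, 7.57, 36.1 and 27.3. All 962 bp of the Muc6 region were exon, and its window matched 5 other places, all on chromosome 7. Sh3d21 (chr4:126149703-126151558) and Fstl3 (chr10:79779823-79781258) had mean percentiles of 21.6 and 23.0. In Fstl3 the Shh-/- replicate 1 percentile of 60.1 stood apart from 3.36, 18.8 and 9.91 in the others.

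Exonic regions called in more libraries held GC boxes more often. The letters GGGCGG were searched on both strands after the windows above were seen. They occurred in the 200 bp around the summit of 20 of the 54 called in all 4 libraries (37.0%, 95% Wilson interval 25.4 to 50.4%). The windows of Phf19, Fstl3, Mamstr and Fhl3 printed above hold these letters and count among the 20. The interval does not allow for this choice of letters. The letters occurred in 30.5% of the regions called in 3 libraries, 21.6% in 2 and 9.25% in 1. Over all exonic regions the share was 11.3%, compared with 6.64% of intronic and 45.3% of promoter regions and 22.8% of all regions. Intronic regions went up in the same way, from 5.41% in 1 library to 21.6% in 4. Promoter regions had 23.0% in 1 library and 60.2% in 4. Among regions called in all 4, the exonic share thus lay between the intronic and the promoter share. The part of base composition in these shares was not tested.

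Exonic regions were WT-specific in 153 cases, or 2.83%, and Shh-specific in 2, or 0.0370%. Of all regions, 2.09% were WT-specific and 0.396% Shh-specific, and of intronic regions 1.38% and 0.593%. The WT-specific share was near the background. Of the 341 exonic regions called in both WT libraries, 44.9% (39.7 to 50.2%) were in neither Shh-/- library, beside 34.4% (30.2 to 38.9%) of 453 intronic and 5.60% of 8031 promoter regions. Over all 9574 regions called in both WT libraries it was 9.76%. Shh-/- replicate 1 held 18.5% of those 341 and Shh-/- replicate 2 held 52.5%. The Shh-/- pair shared 99 exonic regions, of which 98% were also in the longest list, that of WT replicate 1, and 54.5% in that of WT replicate 2. Of all regions that this pair shared, 96.2% and 75% were. At equal list size there were 9 WT-specific and 7 Shh-specific exonic regions, and with all peaks but without WT replicate 2 there were 4223 and 2. These were 3.98% and 3.10% of the exonic regions at equal list size, beside 3.73% and 3.30% of all regions. Without WT replicate 2, 82.4% of exonic and 56.1% of all regions were WT-specific. In bulk libraries, fewer cells with an open region and a less open region in each cell cannot be told apart.

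The WT-specific regions had a median GC content of 59.5%, the same as all exonic regions called in 2 libraries, beside 56.5% for all exonic regions. On coding sequence lay 131 of 153 (85.6%), beside 81.1% of those called in 2 libraries and 80.2% of all exonic regions. The best ranked were in Gm14412 (chr2:177316483-177319915), with percentiles of 26.2 in WT replicate 1 and 17.9 in WT replicate 2, and in Mroh2a (chr1:88228873-88231321), with 27.8 and 17.6. The window of Gm14412 matched at least 50 other places, on 2 chromosomes. Ptgdr2, a prostaglandin D2 receptor gene (chr19:10940386-10941313), had percentiles of 24.3 and 31.1. C2cd4c (chr10:79612005-79612819) had 17.9 and 38.5, and the G protein subunit gene Gnb3 (chr6:124835409-124836031) had 26.6 and 32.7. The 2 Shh-specific regions were in exon 20 of Igdcc4 (chr9:65137171-65137597) and exon 2 of Galnt18 (chr7:111616065-111616417). Their percentiles were 52.4 and 50.8 for Igdcc4 and 66.4 and 70.6 for Galnt18 in Shh-/- replicates 1 and 2, so both lay in the lower part of the lists.

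A stretch of 46.5 kb across Mroh2a and its neighbour Hjurp, a chaperone of the centromeric histone, held 16 exonic regions, 8 of them WT-specific (chr1:88228873-88275356). It was looked at after the named regions were seen. Peaks of WT replicate 1 covered 77.1% of it with 22 peaks and those of WT replicate 2 covered 38.2% with 27. In Shh-/- replicates 1 and 2, 4 peaks each covered 2.57% and 2.52%. Coverage was thus broad in both WT libraries and sparse in both Shh-/- libraries. None of the 16 windows had a close copy elsewhere on the assembled autosomes, X and Y. Without this stretch 145 exonic regions were WT-specific.

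The longest exonic regions formed a second such stretch. In Cwc22, a splicing factor gene, 3 exonic regions of 8956, 23146 and 20623 bp filled 53.3 kb (chr2:77887115-77940406). Peaks of the WT replicates covered 96.8 and 98.9% of it and those of Shh-/- replicate 1 covered 85.6%, whereas Shh-/- replicate 2 had 0 peaks there. In contrast to the Mroh2a stretch, the Shh-/- libraries differed from each other. The ranks were high where the stretch was called: the best peak was number 65 in WT replicate 2 and number 746 in Shh-/- replicate 1. A library of 1 embryo cannot separate what belongs to that embryo from what belongs to its genotype, and the source of these stretches was not tested. The lists do not give the number of copies of a stretch in an embryo, so more copies and more open chromatin cannot be told apart in these coverage values.

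**Figure D4:**
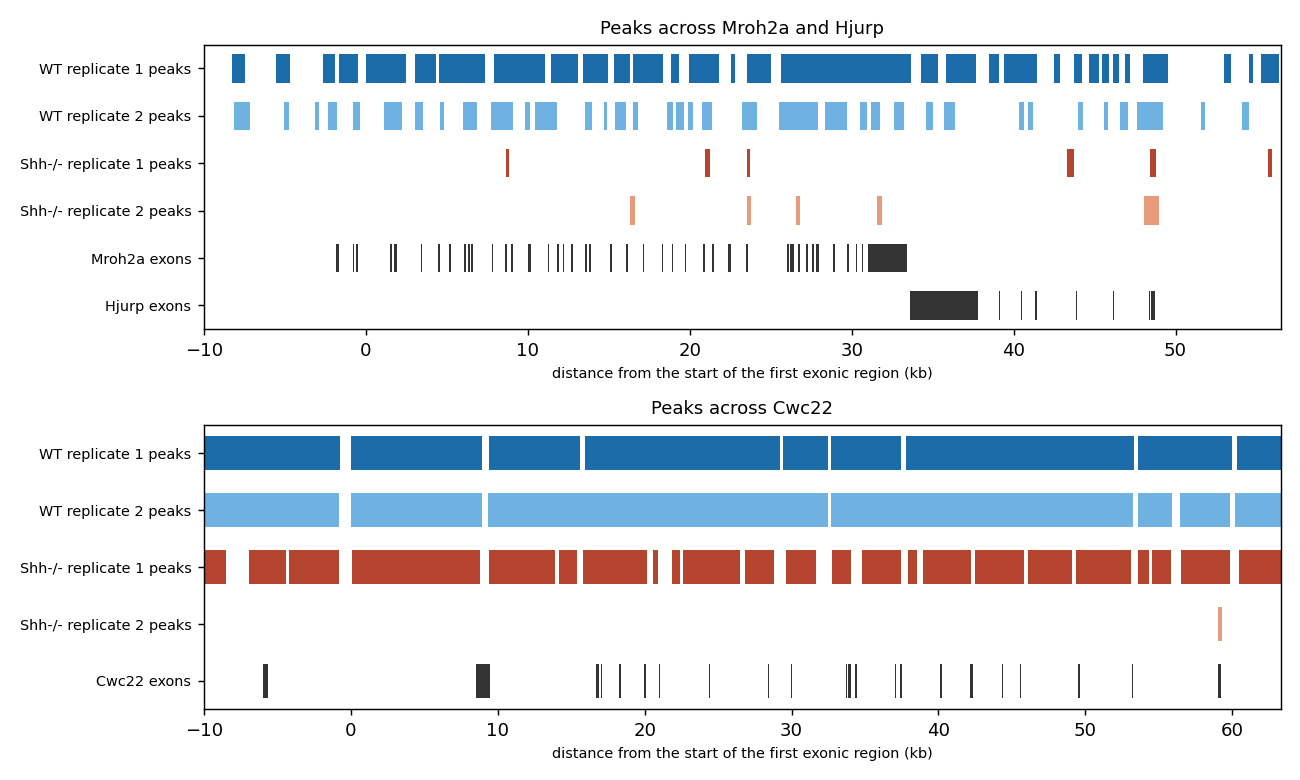
Peaks of the 4 libraries (coloured bars) and annotated exons (black) across Mroh2a and Hjurp (top) and Cwc22 (bottom), by distance in kb from the start of the first exonic region. Both WT libraries have broad coverage of the first stretch (77.1 and 38.2%) and the Shh-/- libraries little (2.57 and 2.52%), while Cwc22 is covered in 3 libraries and has 0 peaks between 0 and 53.3 kb in Shh-/- replicate 2.

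Exonic regions were assigned to 3315 of 21911 protein-coding genes (15.1%). Of these genes 2174 had 1 region, 1141 had at least 2 and 112 had at least 5. Genes with an exonic region had a median of 3.55 kb of exon, beside 2.79 kb for all protein-coding genes, and 83.0% of them had a promoter region, beside 62.1%. The largest number was in Hmcn2, the gene of an extracellular matrix protein with many repeated domains, with 18 regions over 15.6 kb of exon. The receptor gene Lrp1 had 13 and the kinesin gene Kif1a 11. Chd5, Lama5, Mroh2a, Plec and Unc13a had 10 each. In Hmcn2, 17 of the 18 regions were called in WT replicate 1, beside 4743 of all 5402 exonic regions. At least 2 libraries called 1 of the 18 in Hmcn2 and 0 in Lrp1, beside 12.6% of all exonic regions. In Mroh2a 10 of 10 were called in at least 2 libraries.

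Exonic regions were sparse on the X chromosome. There were 12 on X, or 5.46 per Mb of exon, and 0 on Y, while the autosomes ranged from 37.1 per Mb on chromosome 13 to 158.8 per Mb on chromosome 15. Exonic regions made up 2.04% of the 587 regions on X, and between 5.96 and 15.9% on the autosomes.

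Genes of the HH pathway were looked at as a group because the study asks what the pathway does to chromatin. Of 25 such genes, 8 (32.0%) had an exonic region, 12 regions in all, beside 15.1% of all protein-coding genes. The genes of the list had a median of 4.45 kb of exon. Of the ligands, Ihh had a region over exon 2 (chr1:74948202-74948574) that was WT-specific, at percentiles of 86.6 in WT replicate 1 and 85.9 in WT replicate 2, that is near the end of both lists. Shh had none, so exonic regions do not check the genotype. Scube1, of a family of secreted proteins that act on the ligand, had 2. Among the ciliary genes, Evc had 2 and Kif7 1. Of the transcription factors, Gli1 had 1 region, over exon 6 (chr10:127336990-127337222), in WT replicate 2 only, at percentile 81.1. Gli2 had 2 in WT replicate 1 (percentiles 50.9 and 19.4). Gli3 had 2 in its last exon, at percentile 83.2 in WT replicate 1 and 93.7 in WT replicate 2. All 12 were called in WT libraries only, beside 83.5% of all exonic regions. Of the 12, 1 was WT-specific, that of Ihh, beside 2.83% of all exonic regions. No other of the 12 was called in more than 1 library.

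Among transcription factors of the limb, 21 of 49 (42.9%) had an exonic region, beside 15.1% of all protein-coding genes. There were 34 regions in all, 31 of them called in WT replicate 1, beside 4743 of all 5402 exonic regions. The genes of the list had a median of 3.40 kb of exon, beside 2.79 kb. A promoter region was present in 49 of 49, beside 62.1%. Of the 34, 5 (14.7%) were called in at least 2 libraries, beside 12.6% of all exonic regions. The widest support was for a region at exon 3 of Lhx9 (chr1:138837758-138838619), a LIM homeobox gene, with its summit outside exons. It lay at percentile 26.0 of WT replicate 1 and at 48.8 and 42.4 of the Shh-/- replicates. WT replicate 2 had no peak there. Of the 34, 2 were WT-specific, beside 2.83% of all exonic regions. They were in Irx5 and Tbx4, a homeobox and a T-box gene, with percentiles of 47.1 and 50.4 for Irx5 and 42.2 and 81.7 for Tbx4. The region of Tbx4 overlapped its exon by only 12 bp. Lmx1b, which specifies dorsal limb identity, had 6 regions, all in WT replicate 1 alone, beside 75.5% of all exonic regions. Tbx2, a gene that responds to SHH in the limb, had 3, of which the one in its last exon was called in WT replicate 1 and Shh-/- replicate 2.

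Among signals and their partners, 12 of 33 genes (36.4%) had an exonic region, beside 15.1% of all protein-coding genes. The genes of the list had a median of 3.39 kb of exon, beside 2.79 kb. There were 18 regions in all. WT replicate 1 called all 18, beside 4743 of all 5402 exonic regions. Of the 18 regions, 7 (38.9%) were called in at least 2 libraries, beside 12.6% of all exonic regions. A region at exon 5 of Pkdcc, a secreted kinase gene needed for limb growth (chr17:83221954-83223280), was called in all 4. It overlapped the exon by 105 of its 1327 bp, and its summit lay outside exons. It lay at percentiles 9.47 and 73.2 of the WT lists and 48.0 and 23.1 of the Shh-/- lists, so the genotypes overlapped. Exon 2 of Bmp2 (chr2:133554406-133554927) was called in both WT libraries and Shh-/- replicate 2 at percentiles of 39.4, 47.5 and 42.6. Regions at exon 18 of the Notch ligand gene Jag1 and at exon 3 of Cyp26b1, an enzyme that breaks down retinoic acid, were called in WT replicate 1 and both Shh-/- libraries. They overlapped these exons by 117 and 86 bp, and their summits lay outside exons. Of the 18 regions, 3 were WT-specific, beside 2.83% of all exonic regions. Of the 3, 2 were in Cntfr, a cytokine receptor gene with 4 exonic regions, and 1 in exon 2 of Jag1. The regions of Cntfr were at percentiles of 30.4 and 87.8 (exon 8, chr4:41658774-41659841) and 62.4 and 64.9 (exon 5, chr4:41663275-41664108) in WT replicates 1 and 2. The region of Jag1 was at 30.1 and 54.9. The summits of these 3 WT-specific regions also lay outside exons.

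Other gene families lay on both sides of the background. Collagen genes, which have many short exons, had an exonic region in 22 of 44 (50%), with 67 regions, and a median of 6.21 kb of exon. Zinc finger genes of the Zfp series had one in 35 of 424 (8.25%), although 77.1% of them had a promoter region. Hox genes had one in 4 of 39 (10.3%), namely Hoxb2, Hoxc6, Hoxc9 and Hoxd8, while 89.7% had a promoter region. The clustered protocadherins had 1 in 56 genes and the olfactory receptors 1 in 1134, with promoter regions in 5.36% and 0.705%. Of markers of other cells of the limb, 3 of 10 genes of the limb ectoderm (30%), 2 of 10 of endothelium and blood (20%) and 2 of 8 of muscle progenitors (25%) had one, with 4, 3 and 3 regions. These shares were above the 15.1% of all protein-coding genes but rest on 2 or 3 genes each. All but 1 of these 10, in Eya1, were called in 1 library.

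**Figure D5:**
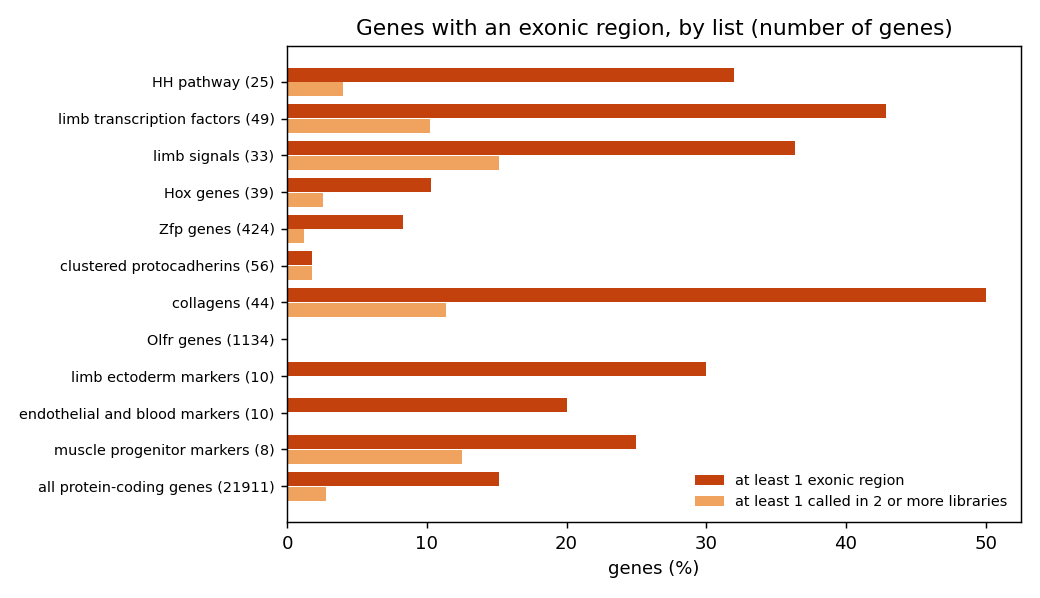
Percent of the genes of each list that had at least 1 exonic region (dark bars) and at least 1 called in 2 or more libraries (light bars); the number of genes is in brackets and the lowest pair of bars is all protein-coding genes (15.1 and 2.77%). The lists of the HH pathway, limb transcription factors, limb signals and collagens lie between 32 and 50% for any region. They lie between 4 and 15.2% for regions called in 2 or more libraries. Limb ectoderm markers have 30 and 0%, and Hox genes 10.3 and 2.56%.

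The GLI binding consensus TGGGTGGTC was found with at most 1 mismatch on either strand in the 200 bp around the summit of 383 exonic regions (7.09%, 95% Wilson interval 6.44 to 7.81%). It was found in 6.02% (5.59 to 6.47%) of intronic, 5.03% of promoter and 5.62% of all regions. Of the WT-specific exonic regions 11 of 153 (7.19%) held it, a share near that of all exonic regions. Among the 12 regions of the HH pathway it was present only in the last exon of Gli3 (chr13:15724804-15725071). That region was called in WT replicate 2 alone, at percentile 93.7. Among the 34 regions of limb transcription factors it was only in exon 8 of Tbx4. Among the 18 of limb signals it was only in exon 8 of Cntfr. The letters CNAGGGGGC, the core to which the insulator protein CTCF binds, were in 1.52% of exonic regions and 1.88% of all regions. They were in 1.25% of exonic regions called in 1 library and 3.46% (1.77 to 6.68%) of the 231 called in 3 or 4, beside 3.42% of all regions called in 3 or 4. A match says only that these letters are present.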

How the data were processed

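ATAC-seq peak lists of 4 libraries were used. Per the labels and the methods, the authors aligned reads with Bowtie2 (2.2.5) to mm10 and called peaks with MACS2 (2.1.0) in each library separately, at a q-value of 0.05. Read filters and any shift for Tn5 were not given in the sources used here. The deposited score of each peak served only to rank peaks within its own list, with ties ordered by position; the summit offset was also used. Other columns held 0. The lists hold no counts, so depth is unknown, the study's own test was not repeated, and a peak that was not called does not show closed chromatin.

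Regions, annotation, GC content and matches were computed with Python 3.11.15, NumPy 2.4.6 and pandas 2.3.3 on GRCm38.p6. Copies were sought with BLASTN 2.17.0 on the assembled autosomes, X and Y, masking simple sequence. Genotypes were compared by exact permutation tests over libraries. The code was checked on simulated data. Named regions were the 5 best ranked of each exon class in all 4 libraries, the 5 best WT-specific and Shh-specific, the genes with most regions and those of fixed gene lists. Some genes that this rule selects are not reported here. These members and lists were chosen with earlier results of these data known. Samples share a replicate number only. Alternatives were equal list size, a score of at least 50, an exon overlap of at least 50 bp, a summit in an exon, a promoter window of 5 kb on each side, autosomes only, each library left out and a replicate block.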

Additional observations from a re-analysis of the deposited data

How the results depend on the processing

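The number of exonic regions in WT minus Shh-/- was 2192.5 with all peaks and turned to -17.5 at equal list size, and the difference in share turned from 4.97 to -0.337 percentage points. Leaving out each library in turn gave 149.5 to 4243 regions and 1.78 to 8.30 points, lowest without WT replicate 1. The replicate block, over 2 pairs that share only a number (correlation of their deviations over regions 0.245), left 2192.5 regions (exact permutation p = 1) and 4.97 points (p = 0.5). The rank difference of 1.3 points became -1.88 at equal list size and -0.327 with a score of at least 50, 0.308 to 2.37 with a library left out, 3.71 with a summit in an exon, 0.653 with an exon overlap of at least 50 bp, and 4.13 where tied scores shared a rank, a setting chosen after seeing the data (0 and 0 for the WT and 8.85 and 7.68 for the Shh-/- replicates). The GC difference of 5.50 points kept its sign in all 10 alternatives, from 5 to 7.69.

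The 153 WT-specific exonic regions became 9 at equal list size, 21 with a score of at least 50, 82 with a summit in an exon and 91 with the 5 kb promoter window, and 162 to 4223 with a library left out, highest without WT replicate 2, with 438 without WT replicate 1 and 275 without Shh-/- replicate 2. The 2 Shh-specific ones became 7 at equal list size, 1 with a summit in an exon, 1 with the 5 kb window and 2 to 319 with a library left out, with 34 without WT replicate 1, 319 without Shh-/- replicate 1 and 50 without Shh-/- replicate 2. With a single library left in a genotype, these counts are those of that library. By construction, equal list size and the score limit keep fewer peaks, and leaving out a library keeps fewer libraries. The summit and 5 kb settings keep all peaks but count fewer regions as exonic. Any other cause was not tested.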
